A study of Rattus norvegicus with 252 samples.

Results

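Across the brain of wild-type (WT) Long Evans rats, 38 genes were higher at 6 than at 2 months of age in at least 1 brain region and lower in at least 1 other. They were found among 9776 genes with a level of 2.3 log2 CPM or more (CPM, counts scaled to a common library total) in each of 4 tissues and medians at 2 months that differed by less than 2 log2 units between tissues, so they made up 0.389% of these eligible genes and were 38 of the 32883 genes listed. A gene was taken when the median over 10 WT libraries at 6 months minus that at 2 months was at least 0.25 log2 units in 1 or more tissues and -0.25 or less in 1 or more others, a change of 1.19-fold each way. The genes were thus chosen by WT levels at 2 and 6 months, so that their WT changes are a description and were not tested. What the choice did not use was the other genotype, which gave the tests reported here.

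The tested animals were rats heterozygous for the Q130 knock-in, labelled Q130 KI Het, which serve as a model of Huntington disease, and their controls were WT Long Evans rats. Striatum, cortex and hippocampus of the right side and cerebellum were sampled at 2, 6 or 12 months, with 5 females and 5 males per genotype and age. Sequencing batch 1 held the libraries of 2 and 6 months, and batch 2 those of 12 months. Each group of a genotype, tissue and age therefore held 10 libraries of 10 animals, and the 160 libraries of 2 and 6 months came from 40 animals. Total estimated counts per library ran from 28.3 M to 50.8 M at these ages, with a median of 35.7 M (M, mega).

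Huntington disease is caused by a lengthened glutamine-coding repeat in the huntingtin gene, and the projection neurons of the striatum are the cells most affected. A rat passes from young adulthood to maturity between the youngest and the middle age sampled here, and brain regions differ in cell makeup, so the level of a gene in whole tissue can follow a different course in each. In whole tissue, fewer cells of a type and less RNA per cell cannot be told apart. The files give no names beside the gene identifiers, and 0 of 32883 identifiers were found in the reference table, so the roles of these genes are not given. The genes are numbered here from 1 to 38 by WT span, the largest minus the smallest change over the 4 tissues, with gene 1 at the largest, and 4 are also given by identifier.

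In 6 libraries of 2 and 6 months, 5 from Q130 rats and 1 from a WT rat, the median correlation with the other libraries of their tissue was 0.922 to 0.962, against 0.973 or more in all libraries of any age that did not stand apart. The library labelled Q130 striatum male 1 at 6 months had a median correlation of 0.939 to its labelled tissue and of 0.986 to the hippocampus. For the library labelled Q130 hippocampus male 5 at 6 months these values were 0.933 to its labelled tissue and 0.983 to the striatum. Both libraries bear the identifier of the same animal, so each was closer to the tissue that the other was labelled as. Whether their tissue labels were exchanged was not tested, and fits with all libraries kept the labels as given. The others were Q130 hippocampus male 3 and WT cortex male 4 at 6 months and Q130 cerebellum male 1 and male 2 at 2 months. All libraries entered the results unless stated otherwise, and a part of the results is also given without those that stood apart.

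The cerebellum stood on one side of most of the opposite changes. It had a change of the required size in 33 of the 38 genes, 18 higher and 15 lower at 6 than at 2 months in WT rats. The striatum had one in 22 genes, 12 higher and 10 lower, the hippocampus in 17, 8 higher and 9 lower, and the cortex in 14, 5 higher and 9 lower, which gave 86 changes in all. Of all eligible genes, 7.20% had a WT change of this size in the cerebellum, 6.00% in the striatum, 4.18% in the hippocampus and 4.26% in the cortex. The cerebellum and the striatum thus had the largest shares over all eligible genes too. The most frequent combination, in 8 genes, was a higher level in the striatum and a lower one in the cerebellum at 6 months. Another 4 genes had the reverse of it, and gene 3 had the reverse together with a lower level in the hippocampus. The hippocampus and the cerebellum alone were opposed in 10 genes, of which 6 were lower in the hippocampus and 4 lower in the cerebellum. Genes 13 and 22 were the 2 with all 4 tissues past the limit, higher in the hippocampus and cerebellum and lower in the striatum and cortex.

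**Figure D1:**
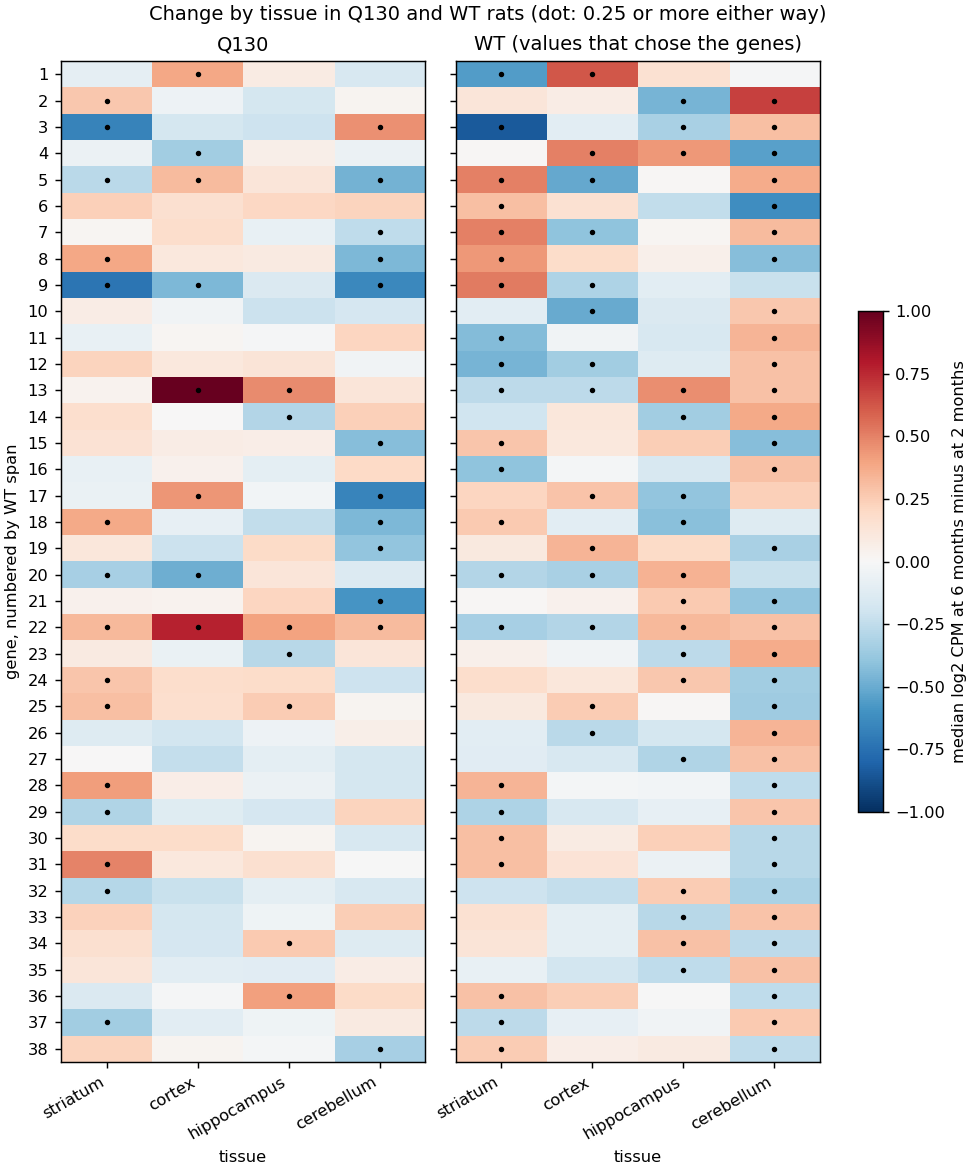
Change of each of the 38 genes between 2 and 6 months (colour, median log2 CPM at 6 months minus that at 2 months, 10 libraries per age) in 4 tissues, for Q130 rats on the left and WT rats, whose values chose the genes, on the right. Rows are genes in the order of their WT span and dots mark a change of 0.25 or more in either direction, of which the WT panel has 86.

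Of the 86 WT changes, 48 were 0.3 log2 units or more in size, while in 25 of the 38 genes the weaker of the opposite changes was under 0.3. The weaker of a gene's opposite changes was 0.25, 0.252 and 0.254 log2 units in the 3 genes just inside the limit, and 0.246, 0.246 and 0.244 in the 3 just outside. Among eligible genes, 267 had opposite changes of at least 0.15 each way, 92 of at least 0.2, 13 of at least 0.3 and 6 of at least 0.35. The largest WT changes were -0.84 in the striatum for gene 3 and 0.68 in the cerebellum for gene 2.

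In Q130 rats the medians followed the WT direction in 64 of the 86 changes, and in 59 of 86 without the libraries that stood apart. The share differed between tissues. In the hippocampus 16 of 17 had the same sign, in the striatum 16 of 22, in the cerebellum 25 of 33 and in the cortex 7 of 14. Without the libraries that stood apart the cerebellum had 20 of 33, and the other 3 tissues kept these counts. Their medians were closer to 0 than in WT rats. In the striatum the genes higher in WT rats had a median change of 0.20 in Q130 and 0.30 in WT rats, and the genes lower in WT rats -0.08 in Q130 and -0.37 in WT rats. Without the libraries that stood apart the Q130 medians there were 0.20 and -0.13. In the cerebellum the medians were 0.10 in Q130 and 0.30 in WT rats for the 18 higher genes, and -0.16 in Q130 and -0.33 in WT rats for the 15 lower ones, and without the libraries that stood apart the Q130 median of the 18 was 0.03. In the hippocampus they were 0.20 in Q130 and 0.31 in WT rats for the 8 higher genes, and -0.18 in Q130 and -0.32 in WT rats for the 9 lower ones. Without the libraries that stood apart the Q130 medians of the hippocampus were 0.17 and -0.10. In the cortex they were 0.17 in Q130 and 0.34 in WT rats for the 5 higher genes, while the 9 lower genes had 0.11 in Q130 and -0.32 in WT rats. The WT values had to be at least 0.25 for a gene to be taken, whereas those of Q130 rats had no such limit, and the difference between genotypes was not tested.

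**Figure D2:**
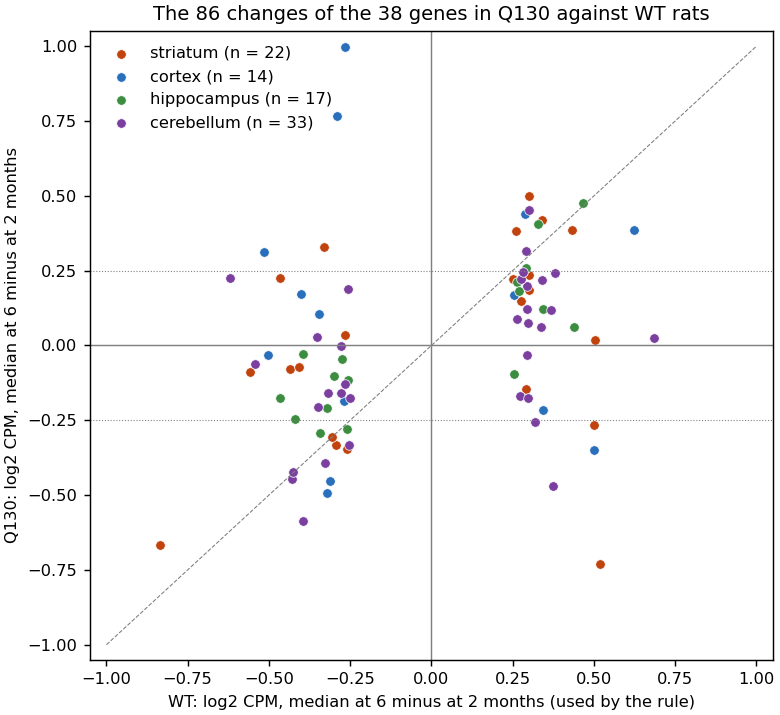
Change in Q130 rats (vertical axis) against that in WT rats (horizontal axis, used to choose the genes), both as median log2 CPM at 6 months minus that at 2 months, for the 86 changes past 0.25 in WT rats, coloured by tissue. Dotted lines mark 0.25 and -0.25 in Q130 rats and the dashed line marks equal change; 64 points lie in the quadrants of equal sign and the hippocampus has 16 of its 17 there.

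By the same limits of 0.25 and -0.25, 5 of the 38 genes (13.2%) had opposite changes in Q130 rats in any tissues, against 24 of the 9738 other eligible genes (0.246%). Without the libraries that stood apart these were 6 genes (15.8%) and 26 other genes (0.267%). These counts cover opposite changes in any tissues and in any direction, so they do not give how many genes repeated the WT course. Only 2 of the 38 genes were opposed in Q130 rats in the same tissues and directions as in WT rats. They were genes 3 and 8, between striatum and cerebellum. Without the libraries that stood apart there were 4 such genes. Gene 5 was opposed the other way round, at -0.27 in the striatum and 0.31 in the cortex of Q130 rats. The 38 genes also varied more between animals than the other eligible genes (median spread within Q130 groups 0.23 against 0.10 log2 units), and the part of this spread in these shares was not tested. Of the 86 changes, 24 passed 0.25 in the WT direction in Q130 rats (23 without the libraries that stood apart). In the other direction 9 passed it (8 without those libraries). Those in the other direction included gene 9 in the striatum, at -0.73 in Q130 and 0.52 in WT rats, and gene 13 in the cortex, at 1.0 in Q130 and -0.26 in WT rats. Of all eligible genes in Q130 rats, 3.57% passed 0.25 upwards and 2.80% downwards in the striatum, and 2.08% and 1.70% in the cortex. These shares were 1.67% and 1.47% in the hippocampus and 2.37% and 3.53% in the cerebellum.

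Genes of the same WT combination differed in how closely Q130 rats followed it. All 4 genes that were lower in the striatum and higher in the cerebellum, numbers 11, 16, 29 and 37, had the same signs in Q130 rats, with medians of -0.35 to -0.07 in the striatum and of 0.09 to 0.22 in the cerebellum. Among the 8 genes higher in the striatum and lower in the cerebellum, 7 were again higher in the striatum and 6 lower in the cerebellum. Gene 6 and gene 36 had 0.23 and 0.19 in Q130 cerebellum, against -0.62 and -0.26 in WT cerebellum. The 6 genes lower in the hippocampus and higher in the cerebellum all had lower medians in Q130 hippocampus, at -0.29 to -0.05, and 5 had higher ones in Q130 cerebellum, at 0.02 to 0.25. Without the libraries that stood apart, the 6 hippocampal medians were -0.17 to -0.01 and 3 of 6 genes were higher in Q130 cerebellum. The counts of signs for the other 3 combinations were the same with and without these libraries. The 4 genes with the reverse were all lower in Q130 cerebellum, at -0.59 to -0.13, and 3 were higher in Q130 hippocampus.

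The change between 6 and 2 months was then tested within each tissue of Q130 rats, with edgeR's quasi-likelihood test over all genes and calls at a Benjamini-Hochberg adjusted p under 0.05 (10 libraries per age). In the striatum 3 of the 12 genes higher in WT rats rose and 3 of the 10 lower genes fell in Q130 rats, where 4.36% of 15537 tested genes rose and 3.3% fell. Genes 8, 28 and 31 rose, by 0.45 ± 0.09, 0.41 ± 0.06 and 0.44 ± 0.10 log2 units (SE). Genes 3, 29 and 37 fell, with log2 fold changes of -0.64 ± 0.09, -0.22 ± 0.05 and -0.40 ± 0.08 (SE). Another 2 genes with small WT changes in this tissue were also called in Q130 striatum, gene 25 at 0.45 ± 0.11 and gene 32 at -0.43 ± 0.13 (SE), which made 8 of 38 in either direction, where 7.66% of all genes were called. Without the library labelled male 1, 5 of the 12 and 3 of the 10 were called in the WT direction, where 9.76% and 8.68% of all genes rose and fell.

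In the cerebellum 5 of the 15 genes lower in WT rats fell in Q130 rats and 1 of the 18 higher genes rose, where 4.17% of 15369 genes fell and 2.54% rose. Those that fell were genes 8, 15, 21, 24 and 38, with log2 fold changes of -0.51 ± 0.10, -0.49 ± 0.11, -0.54 ± 0.09, -0.26 ± 0.07 and -0.30 ± 0.08 (SE), and gene 3 rose by 0.46 ± 0.09 (SE). These 6 of 38 compare with 6.71% of all genes called in either direction. Without the 2 libraries that stood apart, the same test called 5 of 15 and 2 of 18, where 7.98% and 7.45% of all genes fell and rose. The fitted change of the 18 higher genes was above 0 in 15, with a median of 0.24, and without these libraries in 9, with a median of 0.0024. In the cortex 1 of 5 genes, gene 1, rose by 0.46 ± 0.12 (SE, edgeR adjusted p = 0.0197) and 0 of 9 fell, where 3.92% of 15524 genes rose, 4.94% fell and 8.86% were called in either direction. In the hippocampus 0 of 8 genes rose and 1 of 9, gene 3, fell at -0.30 ± 0.07 (SE, edgeR adjusted p = 0.0397), where 0.607% of 15494 genes rose and 0.445% fell. Without the 2 hippocampal libraries that stood apart 1 of 8 rose and 1 of 9 fell, where 1.99% and 2.36% of all genes did. The fitted change of the 8 higher genes was above 0 in 7, with a median of 0.21, and without these libraries in 6, with a median of 0.15. That of the 9 lower genes was below 0 in 8, with a median of -0.15, and without these libraries in 5, with a median of -0.06. The calls of gene 1 in the cortex (adjusted p up to 0.0536) and of gene 3 in the hippocampus (adjusted p up to 0.154) were lost with a replicate block, and that of gene 3 also without a filter on low counts. In these edgeR tests with all libraries 0 of the 86 changes were called against the WT direction. DESeq2 called 1 such change in the cortex, where it called 5.98% of all genes lower, as did edgeR with a replicate block (3.96%), and edgeR with both genotypes in 1 fit called 1 in the striatum (6.13%).

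The difference of the 6 to 2 month change between 2 tissues was also tested within Q130 animals, in 1 fit over their 80 libraries with the animal as a block. A call means that the changes differ, which a change in 1 tissue alone can give, and not that both tissues change in opposite directions. The 38 genes had 50 pairs of tissues with opposite WT changes, and in 37 pairs the Q130 difference had the WT sign. It was called in 8 pairs of 7 genes, each time in the WT direction, while 4.21% of the 16652 tested genes had at least 1 call over the 6 pairs of tissues. Of these 7, only genes 3 and 8 were also called in opposite directions in separate tissues with all libraries. Without the libraries that stood apart 11 genes were called and 33 of the 50 pairs had the WT sign, but 14.5% of all genes then had a call. These shares cover any of the 6 pairs, whereas the 38 genes were counted only in their pairs with opposite WT changes. Outside such pairs, gene 24 was called between striatum and cerebellum in 5 of 5 fits, and it is not among the 7. Most calls contrasted the striatum with the cerebellum, where 5 of 16 genes were called against 2.25% of all genes, and 8 of 16 against 10.1% without those libraries. Between hippocampus and cerebellum 2 of 12 genes were called against 1.88% of all genes, and 3 of 12 against 2.86% without those libraries. Between striatum and cortex 1 of 4 was called against 0.0841% of all genes, and again 1 of 4 against 1.8% without those libraries. Between cortex and cerebellum 0 of 10 genes passed, where 1.6% of all genes did. At an unadjusted p under 0.05 there was 1 in the WT direction, where 14.7% of all genes were in either direction. The pair of cortex and hippocampus had 0 of 4, where 0.00601% of all genes passed, and that of striatum and hippocampus 0 of 4, where 0.276% passed. Both had 0 at an unadjusted p under 0.05 in the WT direction. Of all genes 2.86% and 8.88% were under it in either direction, in the same order. Without the libraries that stood apart these 3 pairs again had 0 called genes, where 5.14%, 0.0299% and 2.62% of all genes passed. Limma-voom also called 0 in each of these 3 pairs of tissues.

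**Figure D3:**
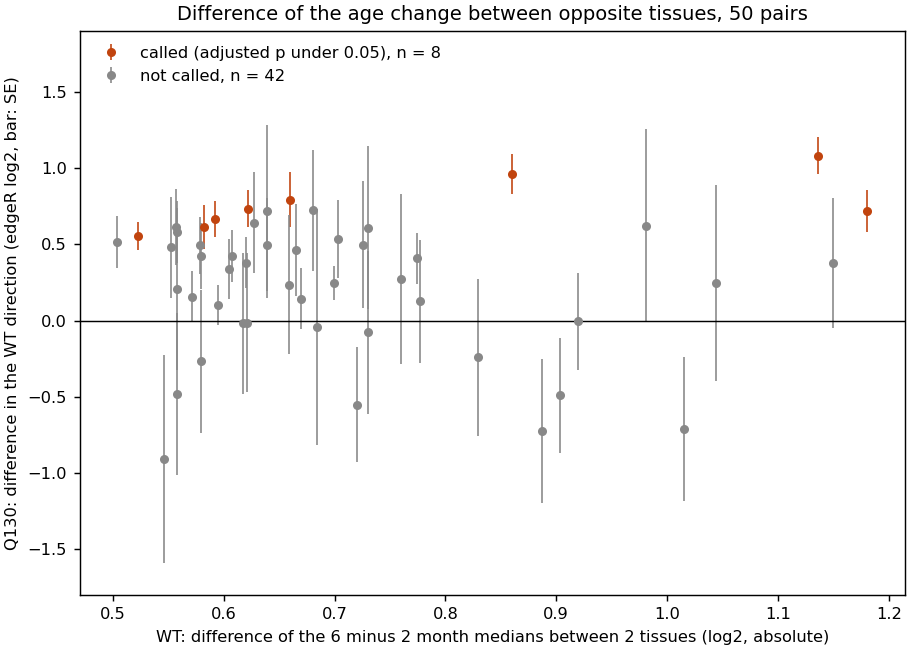
Difference of the 6 to 2 month change between the tissues of the 50 opposite pairs in Q130 rats (vertical axis, edgeR log2 fold change signed so that the WT direction is positive, bars are standard errors) against the absolute difference in WT rats (horizontal axis, log2, used to choose the genes). The 8 called pairs lie above 0 and 37 of the 50 have the WT sign.

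The 4 genes given by identifier had the smallest adjusted p between striatum and cerebellum in each direction, a choice made once the values were known. Gene 3, ENSRNOG00000016690, fell in the striatum and rose in the cerebellum of Q130 rats. In Q130 striatum its level was 14.7 to 28.7 CPM with a median of 17.4 at 6 months and 26 to 32.3 CPM with a median of 27.7 at 2 months. In WT striatum it was 14.7 to 18.8 CPM with a median of 16.5 at 6 months and 25.8 to 35.2 CPM with a median of 29.6 at 2 months. All 10 WT libraries of 6 months thus lay below those of 2 months, and so did all Q130 libraries but the one labelled male 1, which had 28.7 CPM and is the library close to hippocampal ones.

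In the cerebellum the same gene was at 71.9 to 144 CPM with a median of 98.8 in Q130 rats at 6 months and at 66.5 to 81.1 CPM with a median of 71.0 at 2 months. In WT cerebellum it was at 69.9 to 105 CPM with a median of 88.3 at 6 months and at 58.5 to 80.3 CPM with a median of 71.4 at 2 months. The groups overlapped there in both genotypes. In Q130 hippocampus it was at 18.6 to 34.5 CPM with a median of 29.3 at 6 months and at 29.3 to 40.2 CPM with a median of 34.3 at 2 months. The difference of its change between striatum and cerebellum was -1.08 ± 0.12 log2 units (SE, edgeR adjusted p = 1.36e-08) in Q130 rats, and -1.23 ± 0.08 (SE, edgeR adjusted p = 2.27e-16) without the libraries that stood apart. Between hippocampus and cerebellum it was -0.74 ± 0.12 (SE, edgeR adjusted p = 0.000238). It was called in 5 of 5 fits for both of these pairs.

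Gene 37, ENSRNOG00000009350, was lower in the striatum and higher in the cerebellum at 6 months in both genotypes. In the striatum it was at 308 to 553 CPM with a median of 484 in Q130 rats at 6 months and at 531 to 695 CPM with a median of 615 at 2 months, so that 1 Q130 library of 6 months, female 5, reached into the range of 2 months. In WT striatum it was at 405 to 568 CPM with a median of 471 at 6 months and at 470 to 618 CPM with a median of 568 at 2 months. In the cerebellum it was at 242 to 356 CPM with a median of 281 in Q130 rats at 6 months and at 208 to 286 CPM with a median of 264 at 2 months. The WT cerebellar medians were 278 CPM at 6 months and 231 CPM at 2 months, with overlapping groups. The difference between striatum and cerebellum was -0.55 ± 0.09 log2 units (SE, edgeR adjusted p = 9.59e-05) in Q130 rats. Here the fall in the striatum was called, and the cerebellar change alone was not.

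Gene 8, ENSRNOG00000003553, took the reverse course, and with gene 3 it was 1 of 2 genes called in opposite directions in separate tissues with all libraries. Without the libraries that stood apart, genes 24 and 38 were so called too. They had log2 fold changes of 0.25 and 0.30 in the striatum and -0.27 and -0.36 in the cerebellum. In the striatum gene 8 was at 10.2 to 17.3 CPM with a median of 12.4 in Q130 rats at 6 months and at 8.64 to 12.0 CPM with a median of 9.54 at 2 months. In WT striatum it was at 10.6 to 18.5 CPM with a median of 14.7 at 6 months and at 10.02 to 13.6 CPM with a median of 11 at 2 months. In the cerebellum it was at 10.8 to 15.8 CPM with a median of 12.1 in Q130 rats at 6 months and at 14.2 to 24.4 CPM with a median of 16.5 at 2 months. The 24.4 CPM belonged to the library labelled male 1, which stood apart. The groups of 6 and 2 months overlapped in both tissues and genotypes, also in WT cerebellum, at 9.80 to 18.6 CPM at 6 months and 14.5 to 19.7 CPM at 2 months. The difference between striatum and cerebellum was 0.96 ± 0.13 log2 units (SE, edgeR adjusted p = 2.62e-06) in Q130 rats, and 0.85 ± 0.12 (SE, edgeR adjusted p = 8.36e-07) without the libraries that stood apart.

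Gene 28, ENSRNOG00000024689, was higher in the striatum and lower in the cerebellum at 6 months. In Q130 striatum it was at 25.9 to 35.6 CPM with a median of 30.8 at 6 months and at 20.1 to 27.2 CPM with a median of 23.3 at 2 months. In WT striatum the 10 libraries of 6 months, at 28.5 to 35.7 CPM, did not overlap with those of 2 months, at 21.9 to 28.2 CPM. In Q130 cerebellum it was at 23.9 to 32.9 CPM with a median of 28.9 at 6 months and at 27.4 to 54.8 CPM with a median of 32.7 at 2 months. The 54.8 CPM belonged to the library labelled male 2, which stood apart. The difference between striatum and cerebellum was 0.67 ± 0.12 log2 units (SE, edgeR adjusted p = 0.000364), and 0.55 ± 0.10 (SE, edgeR adjusted p = 9.67e-05) without the libraries that stood apart.

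**Figure D4:**
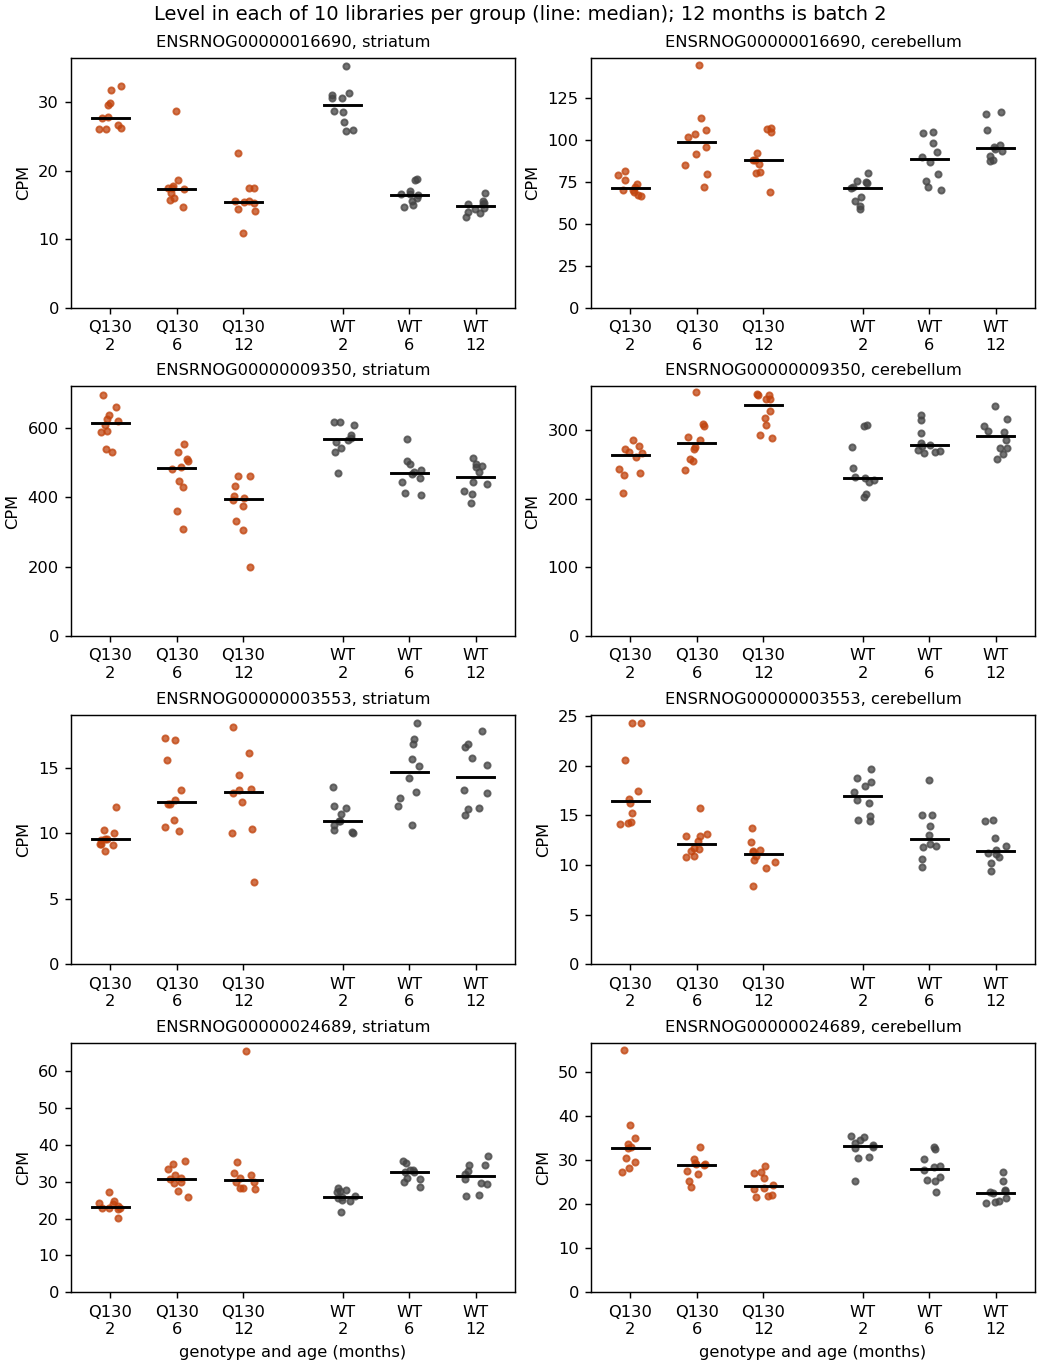
Level in CPM of 4 genes in each of 10 libraries per group (points; lines are medians) in striatum and cerebellum, for Q130 rats (left in each panel) and WT rats at 2, 6 and 12 months. ENSRNOG00000016690 and ENSRNOG00000009350 are lower in the striatum and higher in the cerebellum at 6 than at 2 months, the other 2 the reverse, and the 28.7 CPM of 1 Q130 striatal library at 6 months lies among the values of 2 months.

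The other calls were gene 1 between striatum and cortex at -0.72 ± 0.14 (SE, edgeR adjusted p = 0.00794), gene 21 between hippocampus and cerebellum at 0.79 ± 0.18 (SE, edgeR adjusted p = 0.0101) and gene 29 between striatum and cerebellum at -0.61 ± 0.14 (SE, edgeR adjusted p = 0.00967). Without the libraries that stood apart, the difference was 0.55 ± 0.12 for gene 21 (SE, edgeR adjusted p = 0.00609) and -0.71 ± 0.14 for gene 1 (SE, edgeR adjusted p = 0.00146). The call of gene 1 was lost with limma-voom (adjusted p = 0.0658). Gene 1 was called in the cortex of Q130 rats and not in their striatum. Its level there was 15.4 to 32 CPM with a median of 21.6 in Q130 rats at 6 months and 12.9 to 19.1 CPM with a median of 16.5 at 2 months, and WT cortical libraries did not overlap, at 19.7 to 26.8 CPM at 6 months and 13.8 to 19.6 CPM at 2 months. In the striatum its medians were 11.1 CPM at 6 months and 11.8 CPM at 2 months in Q130 rats, and 10.9 CPM at 6 months and 16.2 CPM at 2 months in WT rats. Over the 86 changes, the libraries of 6 and 2 months did not overlap in 5 for WT rats and in 0 for Q130 rats. The same WT libraries chose these changes and the Q130 libraries did not, so the counts are a description and were not tested. Shares over all eligible genes include those without a change of this size. Of all eligible genes the Q130 libraries of 6 and 2 months did not overlap for 0.767% in the striatum, 0.675% in the cortex, 0.184% in the hippocampus and 0.921% in the cerebellum. The WT shares were 2.5% in the striatum, 0.573% in the cortex, 1.11% in the hippocampus and 1.48% in the cerebellum.

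Of the 8 genes with the largest WT span, the other 5 had wide ranges within groups and no called difference. Gene 2 was at 9.10 to 31.9 CPM with a median of 22.9 in Q130 cerebellum at 6 months and at 2.37 to 29.8 CPM with a median of 22.4 at 2 months. In WT cerebellum its medians were 27.3 CPM at 6 months and 17.0 CPM at 2 months, in ranges of 6.32 to 33.0 and 7.98 to 21.8 CPM. The WT medians were thus apart while the groups overlapped over most of their ranges. In the hippocampus it was at 2.89 to 19.5 CPM with a median of 13.7 in Q130 rats at 6 months and at 3.44 to 17.5 CPM with a median of 15.5 at 2 months, and the WT medians were 12.5 CPM at 6 months and 17.3 CPM at 2 months.

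Gene 4 had the widest range. It was at 1.76 to 34.4 CPM in Q130 cerebellum at 6 months and at 0.0647 to 79.9 CPM at 2 months, where the lowest value came from 0.254 estimated counts and is set by the prior count of 2. In WT cortex it was at 6.08 to 111 CPM with a median of 18 at 6 months and at 6.75 to 21.6 CPM with a median of 12.7 at 2 months. The 111 CPM belonged to the library labelled male 4, which stood apart. In Q130 cortex the medians had the reverse order, 11.7 CPM at 6 months and 14.9 CPM at 2 months. In the hippocampus it was at 25.1 to 85.0 CPM with a median of 28.5 in Q130 rats at 6 months and at 18.4 to 74.5 CPM with a median of 27.2 at 2 months, and the WT medians were 32.8 CPM at 6 months and 24.2 CPM at 2 months.

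Genes 5 and 7 shared a course in WT rats, higher in the striatum and cerebellum and lower in the cortex at 6 months. Gene 5 was at 4.99 to 32.8 CPM with a median of 23.0 in Q130 striatum at 6 months and at 16.3 to 42.8 CPM with a median of 27.7 at 2 months, against WT medians of 29.8 CPM at 6 months and 21.4 CPM at 2 months. Gene 7 had medians of 11.7 CPM at 6 months and 11.6 CPM at 2 months in Q130 striatum, and of 13.3 CPM at 6 months and 9.52 CPM at 2 months in WT striatum. Across the 154 libraries of 2 and 6 months that did not stand apart, the deviations of these 2 genes from their group means correlated at 0.96, the highest value among the 703 pairs of the 38 genes. In the cortex gene 5 had medians of 21.4 CPM at 6 months and 17.6 CPM at 2 months in Q130 rats, and of 13.8 CPM at 6 months and 19.0 CPM at 2 months in WT rats, so that the order was again reversed. Gene 6 was at 4.29 to 17.2 CPM with a median of 8.16 in Q130 cerebellum at 6 months and at 4.29 to 11.2 CPM with a median of 6.97 at 2 months, while its WT medians there were 6.08 CPM at 6 months and 9.29 CPM at 2 months.

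Wide ranges within groups were common to nearly all 38 genes. The spread of log2 CPM between animals of a Q130 group (scaled median absolute deviation over groups of 2 and 6 months) had a median of 0.23 over the 38 genes and 0.10 over the other eligible genes. The 38 genes also had a lower level, a median of 3.94 against 5.20 log2 CPM, a scale not divided by length, and eligible genes within 0.25 log2 CPM of their levels had a spread of 0.12. In 37 of the 38 the spread lay above the median of eligible genes and in 32 above their 90th percentile. In libraries of 12 months, which are other animals and another batch, these counts were again 37 and 32. Gene 17 had the widest spread, 0.98, and gene 29 the narrowest, 0.083. The 7 genes called in a pair of tissues with opposite WT changes had spreads of 0.083 to 0.30 with a median of 0.18. The other 31 had 0.13 to 0.98 with a median of 0.25. The relative length of the genes, from the ratio of counts to TPM, the length-scaled level, had a median of 1.048 times that of eligible genes, and 7 lay below the 10th and 4 above the 90th percentile.

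A set of 7 genes, numbers 2, 14, 18, 23, 26, 33 and 35, varied together between libraries. This set was drawn after the values had been seen, by linking genes whose deviations from group means correlated at 0.7 or more over the same 154 libraries. Such correlations were found in 2.84% of the pairs of the 38 genes and in 0.711% of all pairs of eligible genes, while the median absolute correlation was 0.12 over pairs of the 38 and 0.17 over eligible pairs. Within the set the lowest pair was at 0.62 and the median at 0.80, and 5 of the 7 were among the 6 genes lower in WT hippocampus and higher in WT cerebellum. The mean of the 7 was 4.76 log2 CPM in Q130 cerebellum at 6 months and 4.73 at 2 months (medians of 10 libraries), and 4.91 at 6 months and 4.56 at 2 months in WT cerebellum. In the hippocampus it was 4.0 at 6 months and 4.20 at 2 months in Q130 rats, and 4.06 at 6 months and 4.29 at 2 months in WT rats. Single libraries lay far below these medians, such as 1.96 in Q130 hippocampus male 3 at 6 months, 2.01 in Q130 cerebellum male 2 at 2 months and 2.16 in WT cortex male 4 at 6 months, all of which stood apart.

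These 7 genes also followed how closely a library resembled the others of its tissue. Their deviations correlated at 0.63 to 0.78 with the deviation of that resemblance over the 154 libraries, a level that 7.09% of the other eligible genes reached, while the other 31 genes had values of -0.42 to 0.54. The measure is computed from the same libraries and its part in the changes of these genes was not tested. Its group medians were 0.9875 in Q130 and 0.9868 in WT cerebellum at 6 months and 0.9875 in Q130 and 0.9874 in WT cerebellum at 2 months. Over all 38 genes the median absolute correlation was 0.21 with this measure and 0.085 with library size, against 0.28 and 0.078 in the other eligible genes. Gene 4 ran the other way from the 7, at -0.53, and its highest libraries in Q130 hippocampus at 6 months and in WT cortex at 6 months were those with the lowest mean of the 7.

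**Figure D5:**
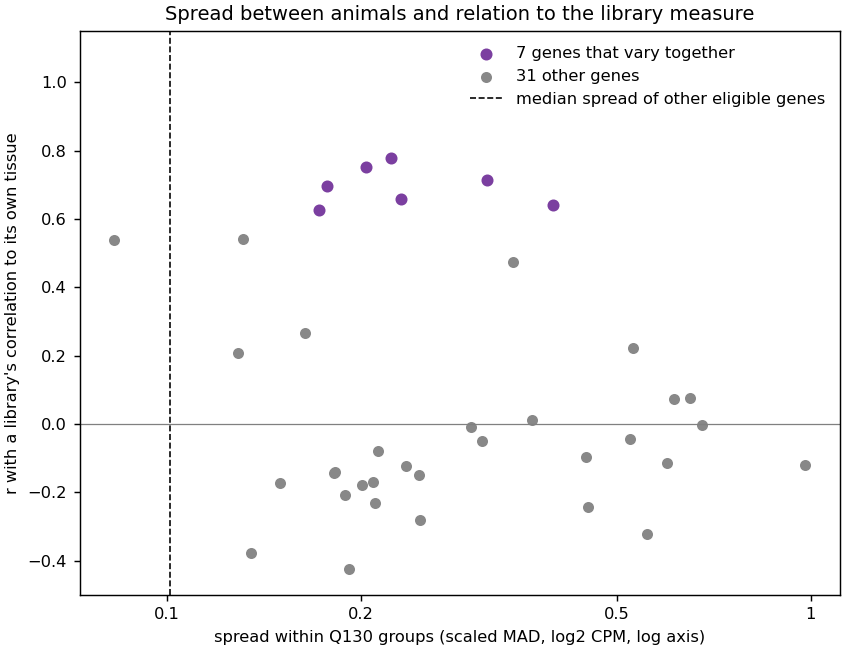
Correlation of each of the 38 genes with the resemblance of a library to its own tissue (vertical axis, Pearson r of deviations from group means over 154 libraries) against its spread within Q130 groups (horizontal axis, scaled median absolute deviation of log2 CPM, log axis). The 7 genes that vary together lie at 0.63 to 0.78, and 37 of 38 genes lie right of the dashed line, the median spread of the other eligible genes.

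Deviations were also compared between the tissues of single Q130 animals. Over 16 Q130 animals with no library that stood apart, the deviations of the 16 genes opposed between striatum and cerebellum had a median correlation of 0.16 between these tissues, with 5 of 16 negative, while eligible genes had a median of 0.18 and 26.1% negative. For the 10 genes opposed between cortex and cerebellum the median was -0.22 with 7 negative, against -0.00127 and 50.2% in eligible genes. These correlations are descriptions, and genes that vary together share libraries. No gene of the 38 was called for a difference between females and males in its 6 to 2 month change in Q130 rats (0 of 38 in each tissue, with 2 to 5 at an unadjusted p under 0.05, where 5.78% to 8.16% of all genes were; 0% of all genes called by edgeR's interaction test).

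No gene of the 38 was called between Q130 and WT rats by edgeR in the 12 comparisons of tissue and age. At 12 months, in libraries that the choice of genes did not use, 0 of 38 were called in the striatum (0% of 15426 genes), the cortex (0%), the hippocampus (0%) and the cerebellum (1.57% of 15177 genes). At an unadjusted p under 0.05 there were 6 of 38 in the striatum (9.76% of all genes), 3 in the cortex (4.05%), 4 in the hippocampus (4.67%) and 8 in the cerebellum (19.1%). Q130 libraries of 12 months also stood apart, striatum male 3 (median correlation 0.859), striatum female 2 (0.961) and cortex male 4 (0.895). Without them edgeR called 0 of 38 in the striatum (1 of 15565 genes) and 0 in the cortex (0 of 15309). At an unadjusted p under 0.05 there were then 10 of 38 in the striatum (2041 of 15565 genes) and 3 in the cortex (933 of 15309). DESeq2 called 4 of the 38 in the cerebellum at 12 months, where it called 4.26% of all genes, and 0 in the other 3 tissues. At 2 and 6 months the WT side chose the genes, so that the counts are a description. They were 0 of 38 in each tissue, where 2.54% of all genes were called in the striatum at 2 months, 0.00645% in the cortex at 2 months and 0.287% in the cerebellum at 6 months, and 0% in the other comparisons, with 0 to 9 of the 38 at an unadjusted p under 0.05, the 9 in the striatum at 2 months, where 19.6% of all genes were. DESeq2 called 4 of the 38 in the striatum at 2 months, where it called 6.4% of all genes, and 0 in the other 7 of these comparisons.

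At 12 months, where age and batch change together, the 4 genes given by identifier lay on the same side of their level at 2 months as at 6 months in both tissues and genotypes. The median at 12 minus that at 2 months was -0.84 in Q130 and -1.0 in WT striatum for ENSRNOG00000016690, and 0.31 in Q130 and 0.41 in WT cerebellum. For ENSRNOG00000009350 it was -0.64 in Q130 and -0.31 in WT striatum and 0.35 in Q130 and 0.34 in WT cerebellum. For ENSRNOG00000003553 it was 0.47 in Q130 and 0.38 in WT striatum and -0.57 in Q130 and -0.58 in WT cerebellum, and for ENSRNOG00000024689 it was 0.39 in Q130 and 0.28 in WT striatum and -0.45 in Q130 and -0.56 in WT cerebellum. In Q130 striatum at 12 months, 7 of the 12 genes higher in WT rats at 6 months lay above their level at 2 months. This held for 4 of 5 in the cortex, 5 of 8 in the hippocampus and 11 of 18 in the cerebellum. Of the lower genes 5 of 10, 8 of 9, 5 of 9 and 12 of 15 lay below it, in the same order of tissues. Of all eligible genes 44.9%, 51.8%, 49.2% and 50.9% lay above it. Over all 38 genes, 12 in Q130 rats and 10 in WT rats had opposite changes between 2 and 12 months by the same limits, against 0.78% of the other eligible genes in Q130 and 0.637% in WT rats. The WT value shares the libraries of 2 months with the choice of genes, and neither value was tested. The 4 genes given by identifier were picked from Q130 tests that used the same Q130 libraries of 2 months.

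The 12 repeat libraries, made again in batch 2 from the striatum of males of 2 and 6 months, were not used in any test of these genes. Compared separately, most of them did not resemble the first library of the same label. After centring, the first library of its own animal was the closest of the 40 first striatal libraries for 2 of the 12. The closest one had another age label in 4 and another genotype label in 7. Gene 3 showed the same at the level of 1 gene. Its repeat libraries labelled Q130 at 6 months were at 18.9, 30.2 and 18.6 CPM and those labelled Q130 at 2 months at 33.4, 17.5 and 18.1 CPM, and those labelled WT were at 17.8, 32.9 and 18.9 CPM at 6 months and at 32.7, 34.6 and 33.2 CPM at 2 months. Thus 4 of 12 repeat libraries lay at the level of the other age, whereas all first striatal libraries other than Q130 male 1 of 6 months lay at that of their own. Which repeat column belongs to which label was read from column names alone.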

How the data were processed

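RNA sequencing libraries of 4 brain tissues were used as the authors deposited them, as a table of expected counts per gene that need not be whole and were rounded before testing. How reads were aligned and counted, and on which genome build, is not given in the sources used here. A second deposited table, whose columns share 1 total, holds TPM values by the authors and served for relative gene length alone. Transcript tables were not used here. Per the labels' protocols, RNA was extracted from flash-frozen tissue, checked on a Bioanalyzer and made into Illumina libraries from enriched RNA subfractions. Columns were matched to samples by identifiers, and 0 per-sample columns were left unused.

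Log2 CPM values (TMM, prior count 2, genes averaging 10 counts per library or more) were computed from the deposited counts, and CPM values in the text are these on the linear scale, prior count included. The rule's level of 2.3 was read as the median over the 20 WT libraries of 2 and 6 months per tissue. Tests used edgeR 4.0.16 under R 4.3.3 (filterByExpr, TMM, robust quasi-likelihood F test, sex as covariate or the animal as a block, Benjamini-Hochberg over all genes), with DESeq2 1.42.0 and limma-voom (limma 3.58.1) as alternatives, and were tested on simulated data. Replicates were separate animals, and p-values cover the spread between them. The members, lists and tests were chosen with earlier results of these data known. Genes were to be named by symbol, otherwise the 12 of largest span by identifier. As no identifier was matched to a name, the text prints 4 identifiers, and lists of gene symbols, marker genes and promoter motifs were not used.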

Additional observations from a re-analysis of the deposited data

Results flagged for a closer look

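In 96 groups of 10 libraries of the genes given in full, 14 had a library set apart by a gap of more than 0.466 of the group's range, Dixon's critical value for 10 values, which chance gives in about 1 of 20 groups (0.05). For gene 2 these were the lowest libraries of WT cerebellum at 6 months (male 5, 6.32 CPM), of Q130 hippocampus at 6 months (male 3, 2.89 CPM) and of Q130 hippocampus at 2 months (female 5, 3.44 CPM). For gene 3 it was Q130 striatum male 1 at 6 months (28.7 CPM). For gene 4 it was the lowest library of Q130 cerebellum at 2 months (female 2, 0.0647 CPM) and the highest of Q130 hippocampus at 6 months (male 3, 85.0 CPM), Q130 hippocampus at 2 months (female 5, 74.5 CPM), Q130 cortex at 2 months (male 4, 57.0 CPM) and WT cortex at 6 months (male 4, 111 CPM). Gene 8 had high libraries in Q130 cerebellum at 6 months (male 2, 15.8 CPM) and Q130 striatum at 2 months (male 4, 12.0 CPM). Gene 28 had a high library in Q130 cerebellum at 2 months (male 2, 54.8 CPM) and low ones in WT cerebellum at 2 months (female 3, 25.3 CPM) and WT striatum at 2 months (female 5, 21.9 CPM). Genes 2 and 4 were at opposite ends in the same libraries of Q130 hippocampus at both ages.

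In pairs of tissues with opposite WT changes, the 6 to 2 month change in Q130 rats differed by edgeR's interaction test for 7 genes. The log2 differences for striatum minus cerebellum were -1.08 for gene 3, 0.96 for gene 8, 0.67 for gene 28, -0.61 for gene 29 and -0.55 for gene 37. For hippocampus minus cerebellum they were -0.74 for gene 3 and 0.79 for gene 21, and for striatum minus cortex -0.72 for gene 1.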

How the results depend on the processing

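Of 101 results recomputed under an alternative, 91 stayed within 1.5 times and 10 moved further, the cause of which was not tested. Those between genotypes or sexes that stayed were all 0 against 0, which was counted as unchanged, in comparisons where few or no genes were called. The genes chosen fell to 13 with a limit of 0.3 and numbered 33 to 44 otherwise, with 16 of the 38 kept in each of the other 9 alternatives; means in place of medians gave 44 with 21 shared. Of these, both other readings of the level rule (35 and 37 genes) and the columns written with dots (35, with 31 shared) were chosen after seeing the data. Genes with opposite Q130 medians were 11 by means. With a replicate block, for numbers that did not pair animals (correlations of same-numbered libraries from -0.14 to 0.25, over 0.1 in 1, 5, 4 and 7 of 10 pairs of striatum, cortex, hippocampus and cerebellum), calls in the WT direction were 0 in the cortex and 0 in the hippocampus, against 1 each, and within 1.5 times in the other comparisons. Without a filter on low counts the hippocampus had 0, and without the libraries that stood apart 2. The fit of both genotypes together gave 10 in the cerebellum, where it called 2096 of 15724 genes. The fit of Q130 rats alone gave 6 there, with 1031 of 15369 genes called. Genes with a called opposite pair were 11 without those libraries. DESeq2 called 4 between genotypes in the striatum at 2 months (6.4% of all genes) and 4 in the cerebellum at 12 months (4.26%), against 0 by edgeR (2.54% and 1.57%).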
